A study of Mus musculus with 4 samples.

Results

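Binding of NFIC was examined at 10 genes of the NF-kB pathway in the mouse pancreas. The genes *Nfkb1*, *Nfkb2*, *Rela*, *Relb*, *Rel*, *Nfkbia*, *Nfkbib*, *Nfkbiz*, *Tnfaip3* and *Ikbkb* were chosen for their place in the pathway, with earlier results of these data known. They were looked up by gene name in the annotated list of NFIC peaks. Of these 10 genes, 6 were named in at least 1 row, and together they held 15 of the 15824 peaks of the list, which names 9086 genes in all. NFIC is a transcription factor of the nuclear factor I family. It was immunoprecipitated from sonicated pancreas of wild-type mice of 8 to 12 weeks, on a background labelled as mixed strain, with an anti-NFIC antibody from Bethyl. The 3 NFIC ChIP libraries stand beside 1 library of input DNA, which received no antibody. The age is that of the deposited description, and the study's text gives a narrower range within it. All samples share tissue, strain label and age, so the list has no second condition.

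The peaks were merged over the libraries before deposit, so each gene has 1 value per peak and no spread between replicates, and the depth of each library is unknown. The whole organ was used, and the cell type in which a site was bound cannot be told. The data hold no RNA, so the tissue label was not checked against markers. The main shares are given with 95% Wilson confidence intervals, which cover counting error only and treat the counted items as independent. Peaks of the same gene are not independent of each other, so intervals over peaks may be too narrow.

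NF-kB is a family of dimeric transcription factors built from the products of *Rela*, *Relb*, *Rel*, *Nfkb1* and *Nfkb2*. In resting cells, the dimers are held in the cytoplasm by IkB proteins, and signals from TNF, IL-1 and Toll-like receptors activate IkB kinase, which marks IkB for degradation and lets the dimers enter the nucleus. Among the genes that NF-kB then switches on are those of its own inhibitors, *Nfkbia* and *Tnfaip3*, and in the pancreas the pathway is known for its activation in acinar cells during pancreatitis.

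The sequences of the peaks at or above the median score that hold the letters of an NFI full site or a kappaB site are printed here, apart from 1 peak of *Nfkbia*, since the results on sites are described from them. The *Nfkbia* and *Nfkbiz* peaks are printed whole. Annotated UTR bases were left out of the *Rela* peak, of which 165 of 173 bases are given, and of the *Tnfaip3* peak, of which 110 are given. The *Rel* peak lies in the 5′ UTR, and only its NFI site is given, in 25 bases. All are on the strand of the gene, 5′ to 3′, from GRCm38 (mm10). Capitals mark matches to the NFI full site TGGCNNNNNGCCA (1 mismatch allowed among the 8 fixed bases) and to the kappaB consensus, which is GGG, a purine, any 2 bases, 2 pyrimidines and CC.
Nfkbia intron peak, chr12:55491914-55492086, minus strand, NFI full site and kappaB: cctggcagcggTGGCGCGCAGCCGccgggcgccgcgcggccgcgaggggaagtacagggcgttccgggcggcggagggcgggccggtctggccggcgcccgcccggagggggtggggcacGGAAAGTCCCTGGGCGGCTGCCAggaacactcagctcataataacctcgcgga
Nfkbia upstream peak, chr12:55495265-55495437, minus strand, kappaB: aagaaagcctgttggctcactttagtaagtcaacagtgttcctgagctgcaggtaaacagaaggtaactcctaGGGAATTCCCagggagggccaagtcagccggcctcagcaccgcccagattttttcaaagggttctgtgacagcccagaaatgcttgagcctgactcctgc
Nfkbia downstream peak, chr12:55446841-55447013, minus strand, kappaB: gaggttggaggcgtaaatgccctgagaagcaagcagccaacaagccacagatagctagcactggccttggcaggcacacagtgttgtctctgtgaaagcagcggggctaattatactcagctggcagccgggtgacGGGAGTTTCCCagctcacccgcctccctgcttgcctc
Nfkbiz intron peak, chr16:55819287-55819459, minus strand, NFI full site: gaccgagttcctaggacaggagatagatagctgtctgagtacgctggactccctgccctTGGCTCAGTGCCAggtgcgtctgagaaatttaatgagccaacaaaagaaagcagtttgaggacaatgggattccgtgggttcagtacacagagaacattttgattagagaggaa
Rela promoter peak, chr19:5637277-5637441, plus strand, NFI full site: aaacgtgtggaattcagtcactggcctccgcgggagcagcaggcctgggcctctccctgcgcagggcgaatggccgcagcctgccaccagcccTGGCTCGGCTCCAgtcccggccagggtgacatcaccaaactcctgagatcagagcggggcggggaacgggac
Tnfaip3 promoter peak upstream of the TSS, chr10:19015411-19015520, minus strand, NFI full site and kappaB: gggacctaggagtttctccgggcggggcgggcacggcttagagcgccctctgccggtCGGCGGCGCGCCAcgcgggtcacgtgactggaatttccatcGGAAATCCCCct
Rel site in the first exon, chr11:23770791-23770815, minus strand, NFI full site: gctagcTGGCTGACTGCCTgcctga

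NFIC peaks were assigned to 3 of the 5 DNA-binding subunit genes and to *Nfkbia*, *Nfkbiz* and *Tnfaip3*, and not to *Nfkbib* or *Ikbkb*. The highest scores were at *Nfkbia*, *Nfkbiz* and *Rela*. Of the 10 genes, 6 had at least 1 peak (60.0%, 31.3 to 83.2), as did 35.9% of all 21774 protein-coding genes of the annotation. The promoter, counted from -1000 bp to the transcription start site (TSS), held a peak centre at *Rela*, *Rel* and *Tnfaip3*, or 3 of 10 genes (30.0%, 10.8 to 60.3), and at 10.3% of all protein-coding genes. A window from -1000 to 1000 bp added *Nfkbia*, which gave 4 of 10 genes (40.0%, 16.8 to 68.7) against a background of 17.5%. Both *Nfkbia*, with 4 peaks, and *Nfkbiz*, with 5, reached 4 or more peaks, which was seen in 3.06% of protein-coding genes. With 10 genes the intervals are wide. Those for any peak and for the wider window include the background share, and that for the promoter starts just above it. The interval for 4 or more peaks starts above 3.06% and includes 8.4%. No test was made of these shares. The background includes genes that are silent in the pancreas.

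**Figure D1:**
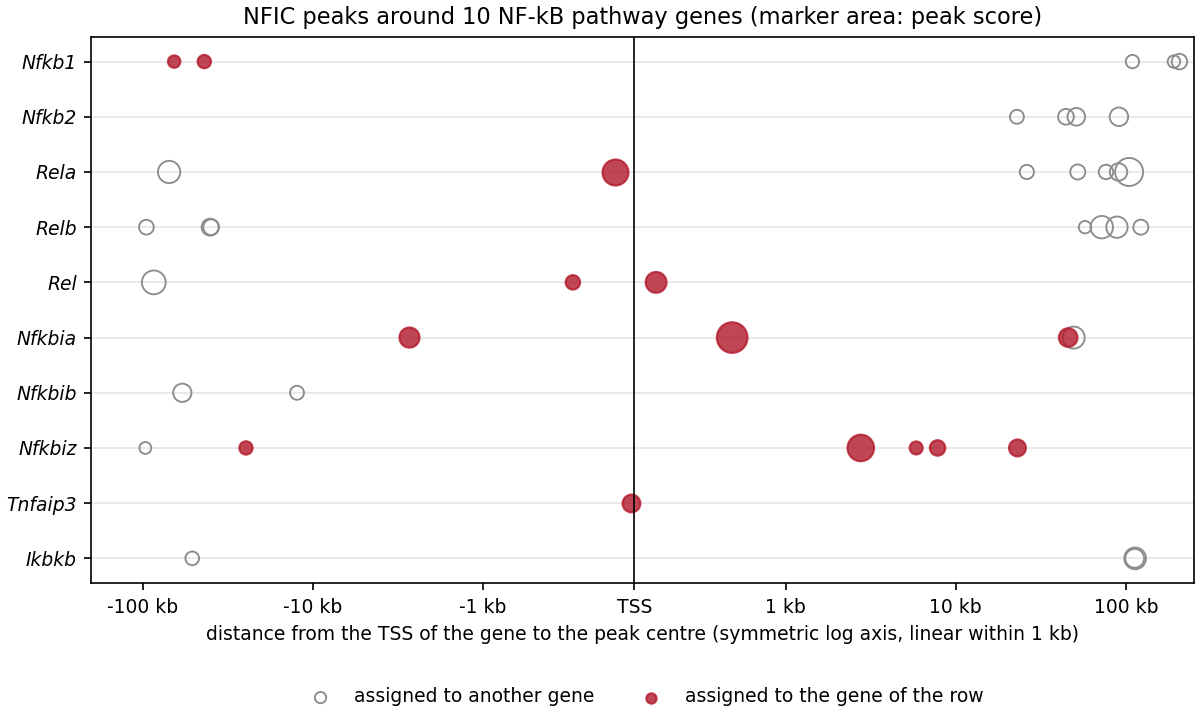
Each row is 1 NF-kB pathway gene, the horizontal axis is the distance from its TSS to a peak centre on a symmetric log scale, and the area of a circle is proportional to the peak score. Filled circles are 14 of the 15 peaks assigned to the gene of the row and open circles are peaks within 100 kb of the gene assigned to others. *Rela*, *Rel*, *Nfkbia* and *Tnfaip3* have a filled circle within 1 kb of the TSS, and *Nfkb2*, *Relb*, *Nfkbib* and *Ikbkb* have none.

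A peak was assigned to 3 of the 5 genes of the DNA-binding subunits and to 35.9% of all protein-coding genes. The subunit genes held 5 peaks in all. The single peak of *Rela*, which encodes the p65 subunit with a strong activation domain, was centred at -127 bp and had a score of 17.3, and 533 peaks of the list scored higher. The score is the authors' own value for a merged peak, on a scale that is not named, and ranges over the list from 3.39 to 68.1 with a median of 6.57. In the RefSeq copy of the annotation used here, the same peak lies at -178 bp. *Rel*, which encodes c-Rel, a subunit best known from lymphocytes, had a pair of peaks 550 bp apart. The peak at 144 bp, in the 5′ UTR in exon 1 of 10, had a score of 11.2, and the peak at -406 bp had a score of 5.38. Thus, *Rela* and *Rel* each had a peak above the median score close to the start of the gene.

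*Nfkb1*, which encodes the p105 precursor of the p50 subunit, had only distant peaks. They were centred at -43393 bp with a score of 4.58 and at -65215 bp with a score of 3.98, both intergenic and both under the median score. Its gene body of 107 kb held 0 peaks, whereas 50.5% of the 2177 protein-coding genes of like length (within 1.5 times) have at least 1. No peak was assigned to *Nfkb2*, which encodes the p100 precursor of p52, or to *Relb*, its usual partner in the non-canonical arm. The peak nearest to the TSS of *Nfkb2* was 22.9 kb away, at 605 bp of *Fbxl15*, with a score of 4.98. For *Relb*, the nearest peak was 39.6 kb away, was assigned to *Clptm1* and had a score of 6.37. *Nfkb2* and *Relb* therefore had no assigned peak, as is true of most protein-coding genes, and *Nfkb1* had only distant ones. *Rela* and *Rel* had peaks at their starts. Other genes of the non-canonical arm did have peaks, as given below.

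The inhibitor gene *Nfkbia* had the highest score of the 15 peaks. It encodes IkB alpha, the main cytoplasmic inhibitor of p65 dimers. The peak at 647 bp, in intron 1 of 5, had a score of 24.1. In the list, 101 peaks scored higher, and 99 genes had a better best peak. The other peaks of *Nfkbia* were intergenic. Of these, 2 are given singly. They were centred at -2704 bp with a score of 10.4 and at 45720 bp with a score of 8.96. All 4 peaks of the gene were above the median score, and they spanned 48.4 kb around a gene of 3.24 kb. A further peak with a score of 12.3 lay at 49293 bp from the TSS of *Nfkbia* and was assigned to *Psma6*, which encodes a proteasome subunit. *Nfkbib*, which encodes the related inhibitor IkB beta, had no assigned peak, and the nearest peak was 12.4 kb from its TSS, within an intron of the gene *Gm19897*, with a score of 4.98.

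*Nfkbiz*, which encodes the nuclear protein IkB zeta, a coregulator of selected NF-kB target genes, held 5 peaks, the most of the 10 genes. Among the genes of the list, 4.48% had as many. The peak in intron 3 of 12, at 2765 bp, had a score of 18.1, and 453 peaks of the list scored higher. The remaining peaks scored lower. The intergenic peak at 23024 bp had 7.37, that in exon 10 of 12 at 7814 bp had 6.17, that at 5851 bp in intron 2 of 13 had 4.38, and that at -24694 bp, which lies in intron 3 of 5 of *Nxpe3*, had 4.58. Thus, the 18.1 of the intron peak stood apart from the remaining peaks of the gene, of which only the one at 23024 bp was above the median. The authors' annotation placed the *Nfkbiz* peaks relative to the starts of several transcripts, so these distances do not share an origin.

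*Tnfaip3* encodes A20, a ubiquitin-editing enzyme that switches the pathway off. Its single peak was centred at -24 bp and had a score of 8.17, and 4946 peaks scored higher. *Ikbkb* encodes the catalytic beta subunit of IkB kinase and had no assigned peak. The nearest peak lay 51.1 kb from its TSS, at the promoter of *Plat*, with a score of 4.78. In all 4 genes without an assigned peak, the nearest peak of any gene thus had a score under the list median. Over 21000 protein-coding genes with a curated TSS, the nearest peak was at a median of 29.6 kb, and 33.7% had one within 10 kb. Of the nearest peaks of these 4 genes, those of *Nfkbib* and *Nfkb2* were nearer than this median, and those of *Relb* and *Ikbkb* were farther.

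By class of element, 6 of the 15 peaks were intergenic, 4 were intronic, 3 were in the promoter-TSS class, 1 was in a 5′ UTR and 1 was in an exon. In the whole list, these classes hold 30.6%, 40.8%, 20.7%, 1.25% and 3.2% of the peaks. Peaks within 1000 bp of the TSS made up 5 of the 15, against 27.4% of the whole list, and those beyond 20 kb made up 6, against 37.1%. The gene body held a peak in 3 of the 10 genes, *Rel*, *Nfkbia* and *Nfkbiz*, and in 26.2% of all protein-coding genes.

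The 15 peaks had a median score of 8.17 (quartiles 4.98 to 13.1), against 6.57 over the whole list (4.98 to 9.16). The lower quartiles were equal, and the upper quartile was higher for the NF-kB genes. A score of 12.7 or above, which 9.95% of all peaks reached, was held by 4 peaks. These were 2 peaks of *Nfkbia*, 1 of *Nfkbiz* and 1 of *Rela*. Without the 4 peaks of *Nfkbia*, the median was 6.17, so the higher median rests on that gene. The focus ratio, which is the fraction of the tags of a peak placed close to its centre as HOMER gives it, ranged from 0.55 to 0.909, with a median of 0.703, against 0.684 over the whole list.

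**Figure D2:**
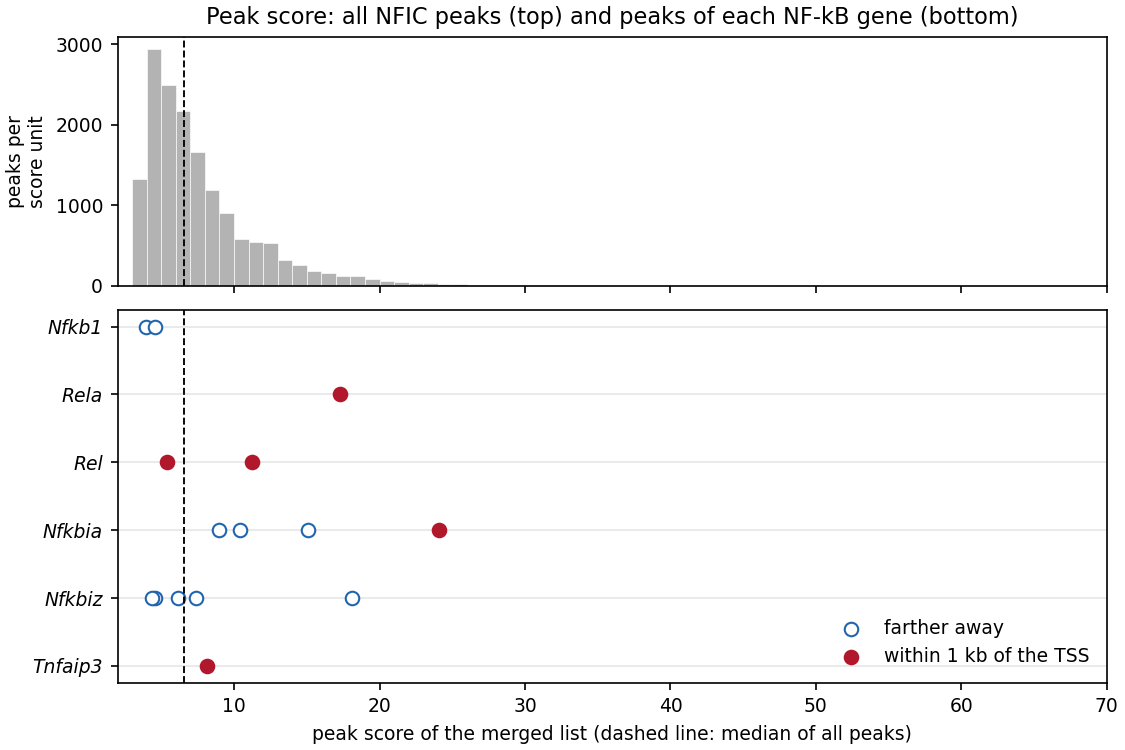
The upper panel counts all 15824 peaks per unit of peak score, and the lower panel gives the score of each of the 15 peaks by gene, filled within 1 kb of the TSS and open farther away, with the list median of 6.57 as a dashed line. All *Nfkbia* peaks are above the line, both *Nfkb1* peaks are under it, and the highest values are 24.1 at *Nfkbia*, 18.1 at *Nfkbiz* and 17.3 at *Rela*.

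Sites were then searched by letters, on both strands, in the 200 bp centred on each peak. NFI proteins bind as dimers to the full site, and less strongly to a single arm. A full site with at most 1 mismatch was found in 7 of the 15 peaks (46.7%, 24.8 to 69.9) and in 51.8% of all peaks. Of these 7 peaks, 6 had a score at or above the median, as did 9 of all 15 peaks. Over the whole list, the full site was in 59.4% of peaks at or above the median score and in 43.6% of those under it. The intron peak of *Nfkbiz* held the only exact match, TGGCTCAGTGCCA, and 13.4% of all peaks held one. At *Rela*, the site TGGCTCGGCTCCA differed by G10T, and at *Rel*, TGGCTGACTGCCT differed by A13T, with positions counted from 1 at the 5′ end of the site as printed and the base of the consensus first. The first exon of *Rel* was the place of its full site, and the upstream peak of *Rel* held neither a full site nor an arm. The arm TTGGCA was found in 8 peaks (53.3%, 30.1 to 75.2), against 33.6% of all peaks. Neither was found in 3 peaks, against 31.7% of all peaks.

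The kappaB consensus was found in 4 of the 15 peaks (26.7%, 10.9 to 52.0) and in 4.3% of all peaks. The share was 6.39% over all promoter-TSS peaks and 3.76% over the other classes. Of these 4 peaks, 3 belonged to *Nfkbia* and 1 to *Tnfaip3*, so without *Nfkbia* the count was 1 of 11 peaks (9.09%). GC content moved with the motif over the list. Among all peaks within 5 points of GC of each of the 4 peaks, 3.5% held the consensus for the upstream *Nfkbia* peak, 9.68% for its intron peak, 4.22% for its downstream peak and 6.75% for the *Tnfaip3* peak. Whether the count exceeds what the base composition gives was not tested. At the intron peak of *Nfkbia*, the kappaB match GGAAAGTCCC was followed by an NFI full site, TGGGCGGCTGCCA, which differed by C4G, with 0 bases between them. An SP-type GC box, GGGCGG, overlapped that NFI site. A second NFI match, TGGCGCGCAGCCG, differed by A13G and lay 96 bases before the kappaB match. The upstream peak of *Nfkbia* held the palindrome GGGAATTCCC, and its downstream peak held 2 overlapping matches on opposite strands. At *Tnfaip3*, the match GGAAATCCCC lay 3 to 12 bp upstream of the TSS and 28 bases from an NFI site, CGGCGGCGCGCCA, that differed by T1C. An NFI full site and a kappaB match in the same window were thus found at 2 of 15 peaks (13.3%, 3.74 to 37.9) and at 2.07% of all peaks. Of these 2 peaks, 1 belonged to *Nfkbia*, and each NFI match in them had 1 mismatch. The GC content was 76.0% at the *Nfkbia* window and 64.5% at the *Tnfaip3* window, and no share at like GC was computed for the pair. A match of letters describes the sequence and does not show that a protein was bound there.

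**Figure D3:**
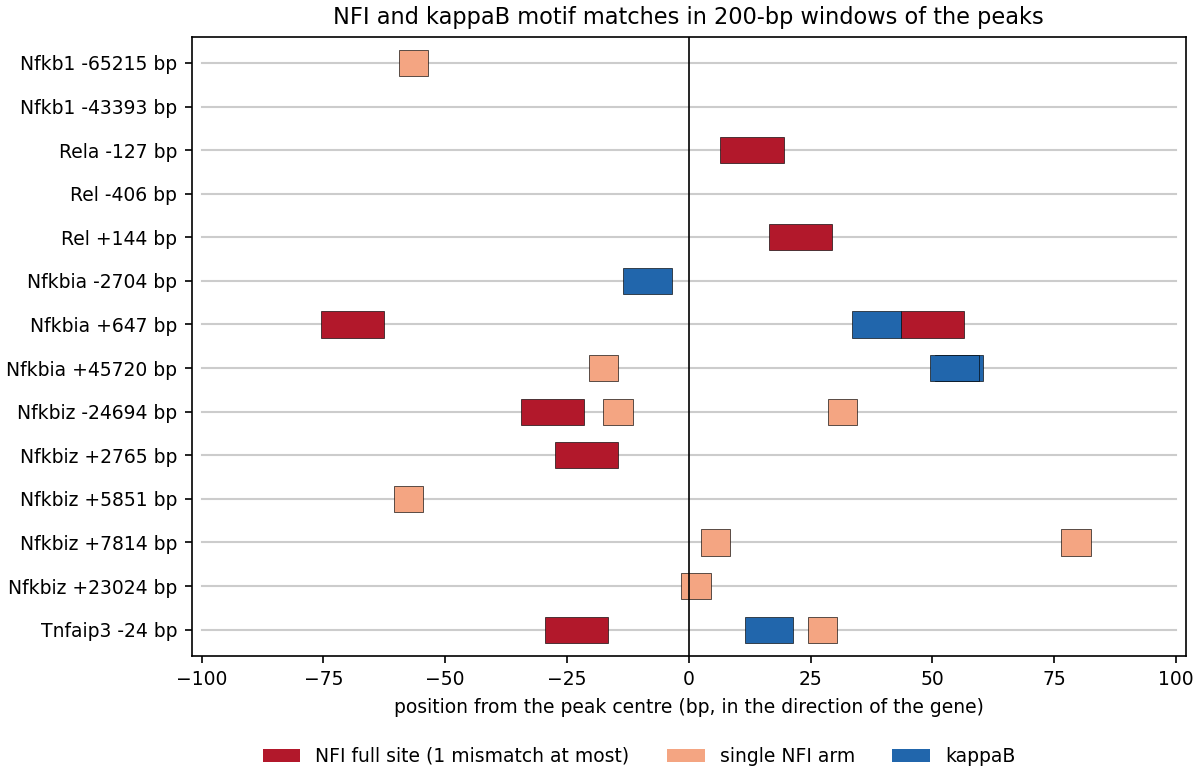
Each row is 1 peak, for 14 of the 15 peaks, named by gene and distance to the TSS, and the boxes mark where matches to the NFI full site, the single NFI arm and the kappaB consensus lie from the peak centre, in bp along the gene. The kappaB match at the *Nfkbia* intron peak touches an NFI full site, and 4 of the 15 peaks have a kappaB match.

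Of the other motifs searched, GGGCGG was found in 5 of the 15 peaks (33.3%, 15.2 to 58.3) and in 21.1% of all peaks, and the AP-1 site TGANTCA was found in 2 (13.3%, 3.74 to 37.9) and in 5.26%. The AP-1 matches were in the *Rel* exon peak, as TGACTCA, and beside the *Nfkbiz* intron peak, as TGAATCA. RefSeq promoter windows of 300 bp (GRCm38) were found for 6 of the 10 genes, 9 windows in all, of which 3 belonged to *Nfkb2* and 2 to *Tnfaip3*. Over all 32851 windows, which were not matched for GC, 8.46% held a kappaB match. Among the 9 windows, a match was present in 6, from 4 of the 6 genes. These were all 3 windows of *Nfkb2*, of which 2 overlap, 1 of the 2 windows of *Tnfaip3*, and the windows of *Nfkbia* and *Rel*. An NFI full site was present in 2 of the 9 windows, at *Rela* and *Tnfaip3*, against 15.3%. *Nfkb2* thus had kappaB letters at its starts and no assigned NFIC peak.

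Further genes of the pathway were counted by layer, from lists of 71 genes, which were also chosen with earlier results of these data known. Of these, 36 had a peak (50.7%, 39.3 to 62.0), with 59 peaks, and 12 had a promoter peak (16.9%), beside the background shares of 35.9% and 10.3% given above. Among TNF receptors and adaptors, 4 of 8 genes had a peak. The promoter of *Tnfrsf1a*, the main TNF receptor, had one at -89 bp with a score of 5.38, and that of *Ripk1*, a kinase recruited to this receptor, had one at -75 bp with a score of 5.18. In the IL-1 and Toll-like receptor arm, 6 of 11 genes had a peak, with promoter peaks at *Il1r1*, the IL-1 receptor, at -41 bp with a score of 7.77 and at *Tlr2*, a receptor for bacterial lipoproteins, at -93 bp with a score of 5.78. The receptor genes *Tnfrsf1a*, *Il1r1* and *Tlr2* thus had peaks at their starts, with scores on both sides of the median. Promoter peaks were found at 2 of the 8 genes of the TNF list (25.0%). In the IL-1 and Toll-like list, they were found at 2 of 11 (18.2%), against 10.3% of all protein-coding genes.

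Of the IkB kinase and upstream kinase genes, 6 of 8 had a peak (75.0%, 40.9 to 92.9), against 35.9% of all protein-coding genes. A promoter peak was found at 1 of these 8 genes (12.5%), close to the background of 10.3%. The 9 peaks of this list had a median score of 5.18, under that of the whole list, and the farthest was centred at -257301 bp. *Chuk*, which encodes the alpha catalytic subunit of IkB kinase, had a promoter peak at -72 bp with a score of 4.38. In the non-canonical arm, 4 of 8 genes had a peak, with promoter peaks at *Map3k14*, its initiating kinase, at -89 bp with a score of 6.57, and at *Birc2*, a ubiquitin ligase that keeps this kinase low, at -19 bp with a score of 5.38. Among the other negative regulators, 5 of 9 had a peak (55.6%, 26.7 to 81.1). *Otulin*, which removes linear ubiquitin chains, had one at -121 bp with a score of 4.38, and *Tnip2*, which encodes a binding partner of A20, had one at -77 bp with a score of 4.78. These promoter peaks were at or under the median score.

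Of the target genes, 10 of 24 had a peak (41.7%, 24.5 to 61.2), close to the 35.9% of all protein-coding genes. A promoter peak was found at 3 of them (12.5% of the 24), close to the background of 10.3%. These were *Sod2*, a mitochondrial superoxide dismutase, at -5 bp with a score of 6.77, and *Xiap*, an inhibitor of caspases, at -222 bp with a score of 7.77. The third was *Traf1*, a TNF receptor adaptor, at -146 bp with a score of 4.38. The highest scores of the 71 genes were those of *Gadd45b*, a stress response gene, with 22.3 at 7741 bp, *Bcl3*, a nuclear IkB protein, with 19.9 at -8211 bp, *Il6*, a cytokine, with 18.1 at 164 bp, *Bcl2l1*, which encodes the survival protein Bcl-xL, with 14.5 at 13757 bp, and *Nos2*, the inducible nitric oxide synthase, with 13.7 at 4305 bp. Among the 3 other IkB protein genes, *Bcl3* was the 1 gene with a peak. Over all 71 genes, the kappaB consensus was found in 12 of the 59 peaks (20.3%, 12.0 to 32.3), against 4.3% of all peaks. These 12 peaks belonged to 10 genes, of which only *Nos2* and *Sod2* were target genes. Whether this share exceeds what class and base composition give was not tested. The NFI full site was found in 34 of the 59 peaks (57.6%, 44.9 to 69.4), close to the 51.8% of all peaks. The median score of the 59 peaks was 5.78, under that of the whole list.

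**Figure D4:**
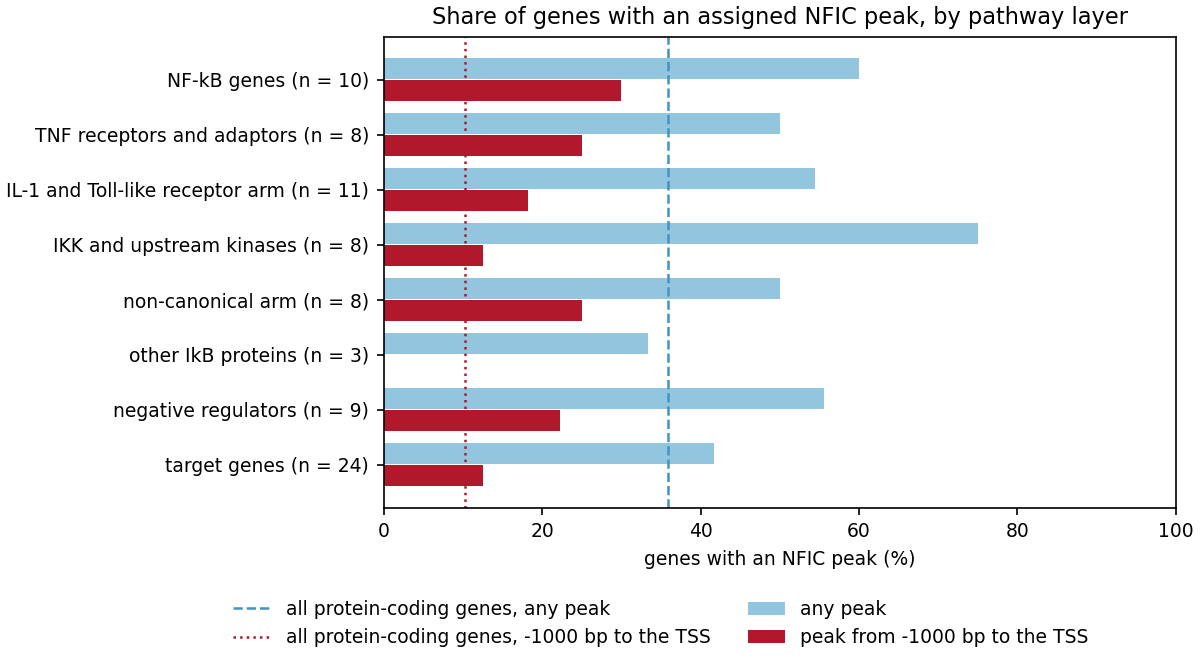
Bars give the percentage of genes with any assigned NFIC peak and with a peak from -1000 bp to the TSS, for the 10 NF-kB genes and for 7 further lists of the pathway, and the vertical lines give the same shares over all protein-coding genes, 35.9% and 10.3%. The kinase list has the highest share with any peak, 75.0% of 8 genes (40.9 to 92.9), and the other IkB protein list has the lowest, 33.3% of 3 genes (6.15 to 79.2), with intervals that overlap widely. For a peak from -1000 bp to the TSS, the share of the kinase list is 12.5%.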

How the data were processed

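The authors deposited 1 merged, annotated peak list on mm10 for 3 NFIC ChIP libraries and 1 input DNA library of mouse pancreas. The submitters' processing notes name BWA, Picard and MACS2. Under a heading that covers the NFIC libraries, in a paragraph that opens with downloaded data sets, the paper's methods name RUbioSeq+ (reads to peaks) and HOMER (merged replicates, annotation), and whether this holds for the NFIC libraries is not spelled out. Thresholds are not given in the sources used here. The peak score is the authors' deposited score, on a scale not named. The focus ratio is the deposited fraction of tags and distances are as deposited, negative upstream. The list has no values per library, so replicates were not compared, no test was made, and the depth is unknown. Both the 10 genes and the 71 further genes were chosen with earlier results of these data known.

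Peaks were counted by gene name. The position and sequence of 1 *Nfkbia* peak are not reported here, and it stays in the counts. All 10 genes are named, and of the further genes those with a peak from -1000 bp to the TSS and the 5 with the highest score. Backgrounds were 21774 protein-coding genes of a RefSeq copy of GRCm38, whose release may differ from that of the authors. For 12 of the 15 peaks its distance was equal to the deposited one. Motifs were searched on both strands in 200-bp windows, and the search was tested on simulated data. Alternatives varied score, assignment, promoter window, mismatches and motif window. Python 3.11, numpy 2.4.6, pandas 2.3.3, scipy 1.17.1, pysam 0.24.0 and matplotlib 3.10.9 were used.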

Additional observations from a re-analysis of the deposited data

How the results depend on the processing

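The number of genes with a peak was 5 to 6 and the number with a promoter peak was 2 to 4 under all alternatives tried. Other counts moved. When peaks under the median score were dropped, 9 peaks in place of 15 were assigned to the genes. With no mismatch allowed, 1 peak in place of 7 held an NFI full site. With at most 1 mismatch, 10 peaks in place of 4 held the kappaB consensus, against 46.3% of all peaks. In windows of 400 bp, 5 peaks held it, against 9.47% of all peaks. The median score of 8.17 was 14.2 over the highest peak of each of the 6 genes, against 7.17 for all genes. It was 11.2 over the 5 peaks within 1000 bp of the TSS, against 6.37 for all peaks there. At *Nfkbia* and *Nfkbiz* the highest peak is taken from more peaks than at most genes, so 14.2 and 7.17 are not like for like. Leaving out *Nfkbia*, chosen after its values were seen, gave 1 kappaB peak and a median score of 6.17. The lowest scores of the list stand in steps of 0.2, so small differences of score cannot be told apart. The error of a single score is unknown. No paired analysis was possible because no value per replicate was given.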
